A study of Mus musculus with 12 samples.

Results

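The Mrp genes are the nuclear genes for the proteins of the mitochondrial ribosome, and their mRNA levels were followed here in 4T1 cells, a mouse mammary carcinoma line, under serine and glycine (SG) starvation and radiation. They were taken as every gene of the deposited table whose symbol is Mrpl or Mrps followed by a number and at most 1 letter, with pseudogene symbols left out, which gave 78 of 20587 genes: 49 named Mrpl and 29 named Mrps. All 78 are protein coding in GENCODE M21 and they lie on 17 chromosomes. RNA-Seq was performed on 4 groups of 3 cultures: Ctr (medium with SG, not irradiated), -SG (medium lacking both amino acids, not irradiated), IR (medium with SG, 5 Gy of X-ray radiation) and IR -SG (medium lacking both, 5 Gy). The line was grown in RPMI, and the experimental media of all groups are described as MEM supplemented with glutamine, other amino acids and dialysed serum. RNA was taken at 24 h in one experiment in biological triplicate, so the p-values measure the spread between cultures of that experiment. All cultures are of a single cell line.

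Mitochondria keep a small genome of their own, and the mRNAs made from it code for core subunits of the respiratory chain and of ATP synthase. These mRNAs are translated by the mitochondrial ribosome, whose rRNAs come from the mitochondrial genome while every one of its proteins is made in the cytosol from a nuclear gene and imported. Part of these proteins have counterparts in bacterial ribosomes and the rest were added in the mitochondrial lineage, so that the mammalian particle is rich in protein and poor in RNA. The letters l and s of the gene names stand for the large subunit, which joins amino acids, and the small subunit, which reads the mRNA.

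The libraries held 12540160 to 20066659 recovered reads in genes (median 16718006), and Mrp genes took 0.331% to 0.402% of them. The line's epithelial markers were high in all libraries, and other cell types' markers were low. The 8 epithelial markers summed to 62754.5 to 63191 normalized counts in Ctr and 89875 to 99845 in -SG. They summed to 67243 to 68688 in IR and 87941 to 90057 in IR -SG. The table lists 2 of 7 leukocyte markers (summing to 5.34 to 8.80 normalized counts in Ctr and 32.5 to 39.3 in IR), 2 of 4 endothelial markers (at most 16.8) and 4 of 5 fibroblast markers (202 to 317 in Ctr and 488 to 525 in IR). The part of these shifts in the results was not tested. A difference between groups in such bulk samples cannot tell fewer cells of a kind from less RNA per cell. The -SG replicate 6 library stood apart: its counts differed from those of -SG replicates 4 and 5 by a chi-square per gene of 7.76 and 12.2, against 1.51 to 3.29 for all other pairs of replicates. In that library the Mrp genes lay higher than in the mean of its 2 replicates by a median log2 difference of 0.16, with 68 of 77 above, while the median of all genes lay at 0.02. After a correction for the GC content and length of the genes the Mrp difference was 0.06, with 55 of 77 above. Where leaving this library out changed a call or moved a count of the Mrp genes strongly, the value without it is given as well.

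Differences are log2 fold changes of normalized counts with 1 added, tested with limma in one fit of the 4 groups over 11663 protein-coding genes, and a change is called where the adjusted p (Benjamini-Hochberg over all these genes) is under 0.05. Of the 78 Mrp genes 77 reached 10 normalized counts in 3 or more libraries and were tested. Mrpl53 was not, with 0 to 4.92 normalized counts, and 88.0% of its exon bases also belong to Gm42688 on the same strand. The filter did not depend on a high group for the others: the lowest mean among the 77 was 97.5 normalized counts in any group.

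As a set the Mrp genes were lower in each of the treated groups than in Ctr, by little per gene. After radiation alone 48 of 77 fell and 0 rose, where 24.9% of all genes fell and 28.9% rose. After SG starvation alone 28 fell and 4 rose (28.6% and 30.0% of all genes), and after both treatments 56 fell and 3 rose (32.5% and 37.2%). The median log2 fold change was -0.19 after radiation, -0.10 after starvation and -0.30 after both, against 0.00, 0.01 and 0.03 over all genes tested. Few of the Mrp genes had log2 fold changes far above 0, as the cumulative curves show.

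**Figure D1:**
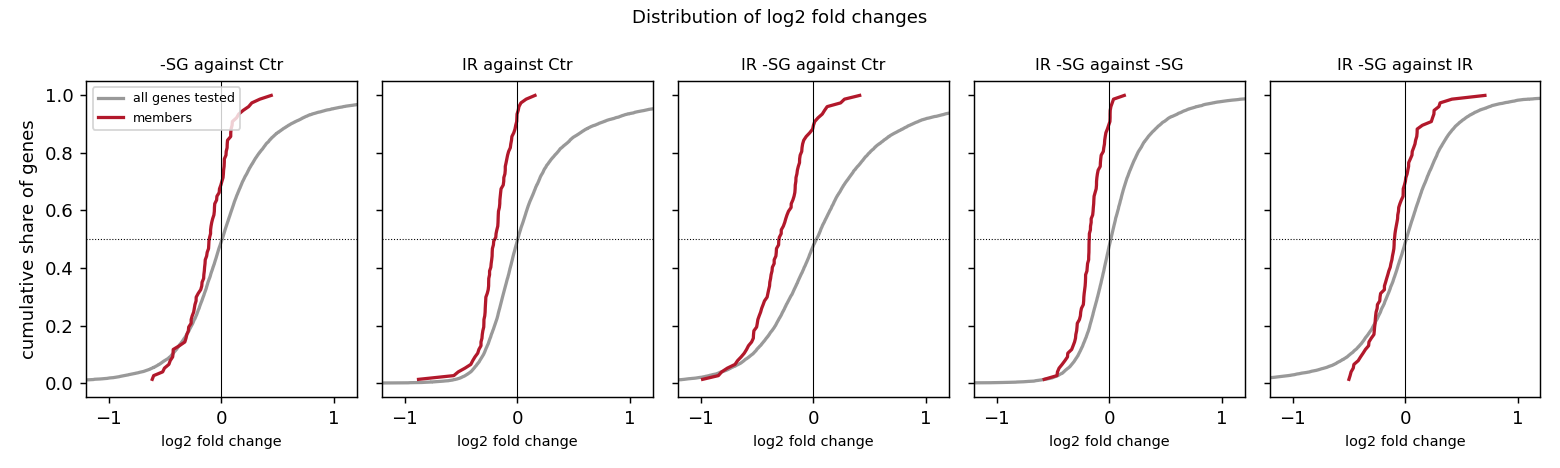
Cumulative share of genes (y axis) at or below each log2 fold change (x axis) in 5 comparisons, for the 77 tested Mrp genes (red) and all 11663 genes tested (grey). The Mrp curve lies to the left of that of all genes around the middle of each panel, with a median of -0.30 in IR -SG against Ctr, and the x axis ends at -1.2 and 1.2.

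**Figure D2:**
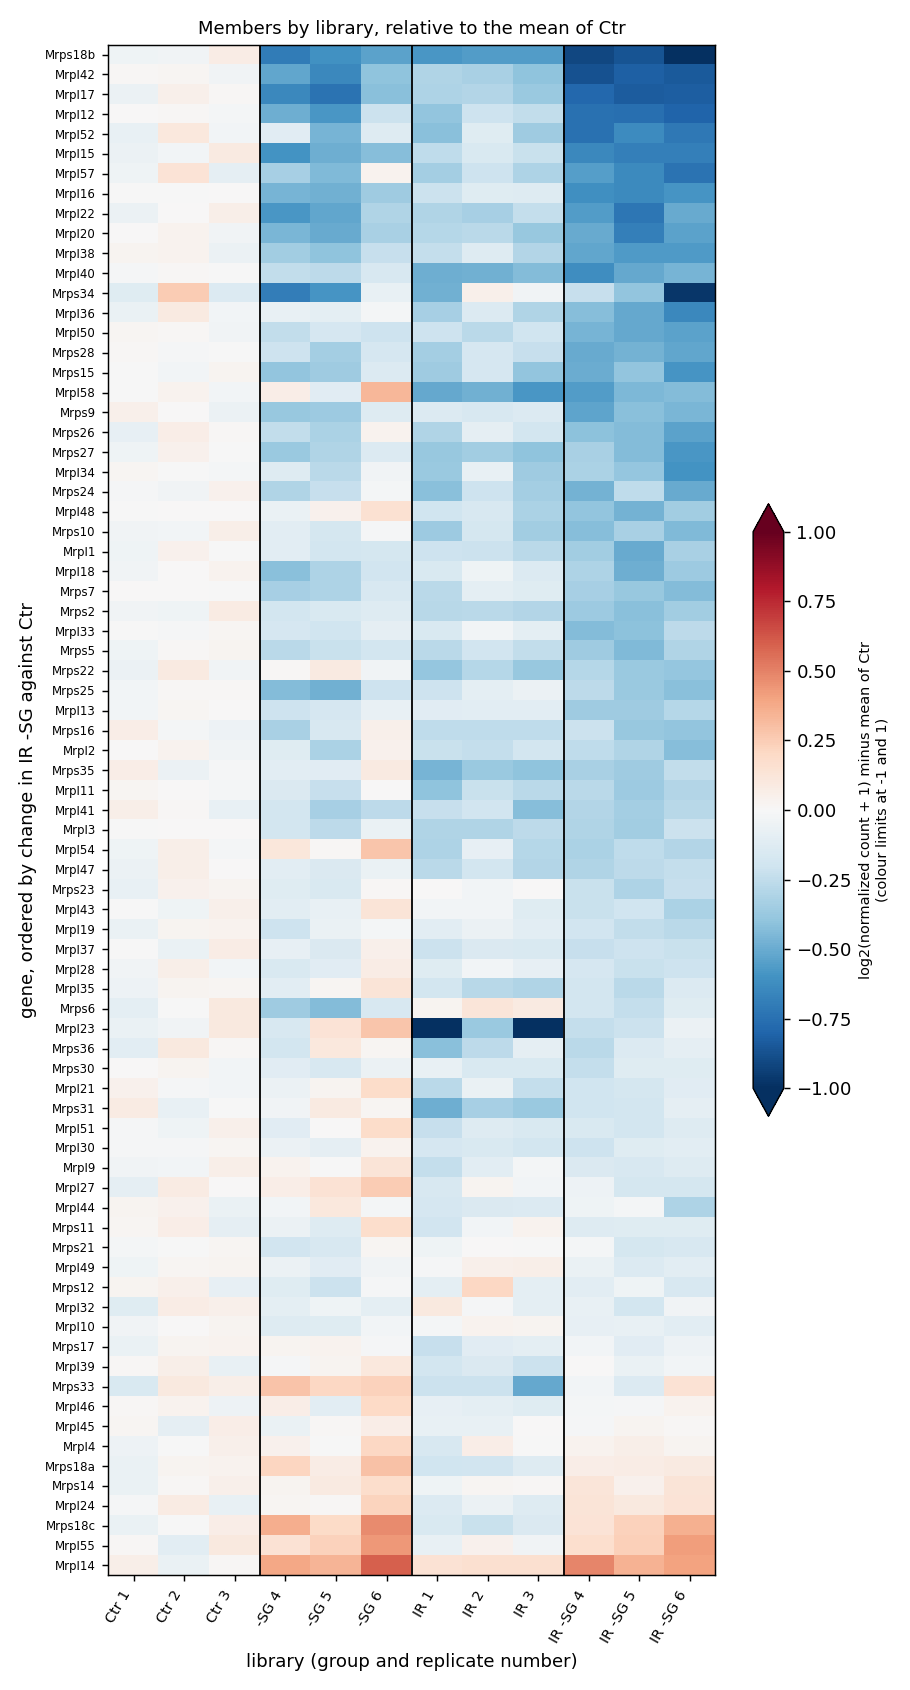
Each of the 77 tested Mrp genes (rows, ordered by its change in IR -SG against Ctr) in each of the 12 libraries (columns), as log2(normalized count + 1) minus the mean of the 3 Ctr libraries. Blue is lower and red is higher, and the -SG replicate 6 column is paler than those of -SG replicates 4 and 5.

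The comparison of IR with Ctr asks what radiation did in complete medium. The 48 falls make up 62.3% of the Mrp genes tested, whereas 24.9% of all genes fell, and no Mrp gene rose while 28.9% of all genes did. The 0 rises held for edgeR and DESeq2 on recovered reads too, and at an unadjusted p under 0.05 the number that rose was 1 by limma, 1 by edgeR and 0 by DESeq2. The lowest of these genes was Mrpl23, whose bacterial counterpart sits at the exit of the peptide tunnel, followed by Mrps18b, Mrpl58, Mrpl40 and Mrps35. Mrpl40, a large-subunit protein added in the mitochondrial lineage, had 765, 778 and 769.7 normalized counts in the Ctr libraries and 549, 554 and 571 in the IR libraries. The groups were far apart relative to their spread, with a log2 change of -0.47 ± 0.05 (SE, adjusted p = 2.14e-06). Mrps35, a mitochondria-specific protein of the small subunit, went from 779 ± 34.8 to 585 ± 20.3 normalized counts (mean ± SD, n = 3), which gave -0.41 ± 0.06 (SE, adjusted p = 3.28e-05) on the log2 scale. When each library was left out in turn, 38 to 56 Mrp genes fell in IR, and 31 of the 48 passed every time.

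The comparison of -SG with Ctr asks what the lack of SG did without radiation. Of the 77 genes 28 fell, which is 36.4% against 28.6% of all genes, and 4 rose against 30.0% of all genes. The share of falls depended on -SG replicate 6: without it 42 Mrp genes fell and 3 rose, and the falls were then 54.5% against 30.0% of all genes, with a median of -0.14. The largest falls were in Mrps18b, Mrpl17, Mrpl42, Mrpl15 and Mrpl22. Mrpl17, the counterpart of a bacterial large-subunit protein near the tunnel exit, had 1078, 1159 and 1127 normalized counts in Ctr and 718, 669.5 and 837 in -SG. All 3 starved libraries lay below all 3 control libraries, with the last of them, replicate 6, nearest to Ctr, and the log2 fold change was -0.60 ± 0.07 (SE, adjusted p = 7.46e-07). Mrpl15 fell from 1397 ± 77.1 to 984 ± 58.3 normalized counts (log2 fold change -0.51 ± 0.05, SE, adjusted p = 4.57e-07), and Mrpl22, whose bacterial counterpart lines the peptide tunnel, fell from 549.8 ± 22.1 to 399 ± 41.4 (log2 fold change -0.47 ± 0.08, SE, adjusted p = 6.12e-05). All 28 genes called lower with -SG replicate 6 were also called lower without it.

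The 4 genes that rose in -SG were Mrpl14, Mrps18c, Mrpl55 and Mrps18a. Mrpl14, a counterpart of a bacterial protein at the interface of the subunits, had 594, 543 and 575 normalized counts in Ctr, 747, 723 and 864 in -SG, 630.2, 638 and 639 in IR and 799.9, 725 and 752 in IR -SG. The ranges of Ctr and of each treated group did not overlap, and those of the 2 starved groups did. Its log2 fold change was 0.44 ± 0.06 (SE, adjusted p = 1.86e-05) in -SG and 0.41 ± 0.06 (SE, adjusted p = 2.68e-05) in IR -SG. In IR it was 0.16 ± 0.06 (SE, adjusted p = 0.0503), which the main test did not call. That value was called without Ctr replicate 1, -SG replicate 5 or -SG replicate 6. With all libraries it was called under a minimum mean of 100, equal library totals, upper-quartile scaling or only the groups compared. Mrpl55, whose bacterial counterpart is a small zinc-binding protein, had 276 ± 19.3 normalized counts in Ctr, 334 ± 35.0 in -SG and 335 ± 30.0 in IR -SG, with log2 fold changes of 0.27 ± 0.09 (SE, adjusted p = 0.0136) and 0.28 ± 0.09 (SE, adjusted p = 0.00957). Its call in -SG was lost without Ctr replicate 2 or -SG replicate 6, and its call in IR -SG without Ctr replicate 2 or IR -SG replicate 6.

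The comparison of IR -SG with Ctr covers both treatments together. It gave the most falls, 56 of 77 or 72.7% against 32.5% of all genes, and 3 rises (Mrpl14, Mrpl55 and Mrps18c) against 37.2% of all genes. The 5 largest falls were in Mrps18b, Mrpl42, Mrpl17, Mrpl12 and Mrpl52. Mrpl42, a mitochondria-specific protein of the large subunit, had 1475, 1483 and 1427 normalized counts in Ctr and 799, 828 and 814 in IR -SG, with 1017, 936 and 1106 in -SG and 1184, 1169 and 1106 in IR. The 3 treated groups did not overlap with Ctr, and IR -SG was the lowest, with a log2 change of -0.84 ± 0.05 (SE, adjusted p = 7.13e-10). Mrpl17 had 649.8, 627 and 632 normalized counts in IR -SG and 906, 912 and 867 in IR, a log2 change of -0.81 ± 0.07 (SE, adjusted p = 1.11e-08) and -0.32 ± 0.07 (SE, adjusted p = 0.000568) against Ctr. Mrpl52, another mitochondria-specific large-subunit protein, fell from 763 ± 49.5 to 470.2 ± 19.1 normalized counts (log2 fold change -0.70 ± 0.09, SE, adjusted p = 3.55e-06).

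Mrpl12 is the subunit of the flexible stalk that recruits translation factors to the large subunit, and it is also known to bind the mitochondrial RNA polymerase. It had 3117, 3142 and 3077 normalized counts in Ctr, 2217, 2078 and 2677 in -SG, 2362, 2700.0 and 2628 in IR and 1859, 1846 and 1789 in IR -SG. Every treated library lay below every Ctr library and the IR -SG libraries lay below all others. The log2 fold change against Ctr was -0.43 ± 0.07 (SE, adjusted p = 6.42e-05) in -SG, -0.28 ± 0.07 (SE, adjusted p = 0.00294) in IR and -0.76 ± 0.07 (SE, adjusted p = 5.86e-08) in IR -SG. An annotated gene on the opposite strand, Gm16755, covers 13.1% of the exon bases of Mrpl12, and whether reads were counted by strand is not given in the sources used here.

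By calls in the 2 single treatments, 23 of 77 Mrp genes fell in both, and all 23 of these also fell in IR -SG. A further 25 fell in IR but were not called lower in -SG, 5 fell in -SG but were not called lower in IR, and 8 fell in IR -SG while called lower in neither. These comparisons share the Ctr libraries, so the counts do not measure how alike the treatments are. Such combinations of calls were not counted over all genes tested, so there is no background to read them against. Whether their sizes are particular to the Mrp genes was not tested. Without -SG replicate 6 the counts were 34 in both, 22 in IR alone, 8 in -SG alone and 2 in IR -SG with neither. The 5 became 3 without -SG replicate 4 or 5 and 11 without IR replicate 1, and the 8 became 13 without IR replicate 3. The 13 genes with no call in any of the 3 comparisons with Ctr were Mrpl4, Mrpl10, Mrpl24, Mrpl27, Mrpl32, Mrpl44, Mrpl45, Mrpl46, Mrps11, Mrps12, Mrps14, Mrps21 and Mrps36, and without -SG replicate 6 there were 8 such genes.

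Each treatment was also measured in libraries that the first measure did not use: radiation in IR -SG against -SG, and SG starvation in IR -SG against IR. In starved cells radiation lowered 45 of 77 Mrp genes and raised 0, against 19.3% of all genes lower and 23.8% higher, with a median of -0.18. At an unadjusted p under 0.05, 0 rose by limma, by edgeR and by DESeq2. Of the 48 genes that fell with radiation in complete medium 37 fell in starved cells too, which is 77.1% of the former and 82.2% of the latter. Over all genes these shares were 57.4% and 73.9%. Such shares also depend on how many genes fell, which in starved cells was 58.4% of Mrp genes and 19.3% of all genes. Estimates were below 0 in both for 67 of the 77 Mrp genes. Without -SG replicate 6 the number of falls in IR -SG against -SG was 31, with 1 rise and a median of -0.12, and 28 of the 56 genes lower in IR fell in both, which is 90.3% of the 31. In a fit of -SG and IR -SG alone 29 fell. With such fits of only the groups compared 26 genes fell in both, 47.3% of those lower in IR and 89.7% of the 29.

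The largest falls with radiation in starved cells were in Mrpl58, Mrpl36, Mrpl52, Mrpl48 and Mrpl54. Mrpl36, the counterpart of the smallest bacterial large-subunit protein, went from 663 ± 18.1 normalized counts in -SG to 480.5 ± 36.5 in IR -SG (log2 fold change -0.47 ± 0.07, SE, adjusted p = 5.01e-05). Mrpl52 had a log2 change of -0.46 ± 0.09 (SE, adjusted p = 0.000674), Mrpl48 one of -0.45 ± 0.07 (SE, adjusted p = 0.000182) and Mrpl54 one of -0.42 ± 0.07 (SE, adjusted p = 0.000166). The last 3 are mitochondria-specific proteins of the large subunit, and Mrpl48 overlaps Rab6a, a gene of higher counts on the opposite strand, over 8.7% of its exon bases.

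In irradiated cells SG starvation lowered 30 of 77 Mrp genes, 39.0% against 28.1% of all genes, and raised 9, 11.7% against 28.9%. The median was -0.10, as it was for starvation without radiation. Of the 28 genes lower in -SG 23 were lower here too, 82.1% of the former and 76.7% of the latter, and over all genes the shares were 74.7% and 75.8%. Without -SG replicate 6 it was 29 genes, 69.0% and 87.9% of the genes lower in each. All 4 genes that rose in -SG against Ctr rose again in IR -SG against IR, together with Mrpl23, Mrps33, Mrpl24, Mrpl39 and Mrps31. The falls were led by Mrpl42 (-0.50 ± 0.05, SE), Mrpl17 (-0.49 ± 0.07), Mrpl12 (-0.48 ± 0.07), Mrpl15 (-0.46 ± 0.05) and Mrpl16 (-0.46 ± 0.05), all log2 fold changes with an adjusted p of at most 2.23e-05. Mrpl16, the counterpart of a protein near the peptidyl transferase centre in bacteria, had 947, 943 and 952 normalized counts in Ctr, 817, 868 and 864 in IR, 684, 679.5 and 742 in -SG and 617, 609 and 629.5 in IR -SG. Its 2 starved groups lay below its 2 fed groups without overlap. Mrps33, a small-subunit protein, had 104, 104 and 84.6 normalized counts in IR and 119, 110.0 and 134 in IR -SG (log2 fold change 0.31 ± 0.11, SE, adjusted p = 0.0266), and this call was lost by DESeq2 and without IR replicate 3, IR -SG replicate 4 or IR -SG replicate 6.

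**Figure D3:**
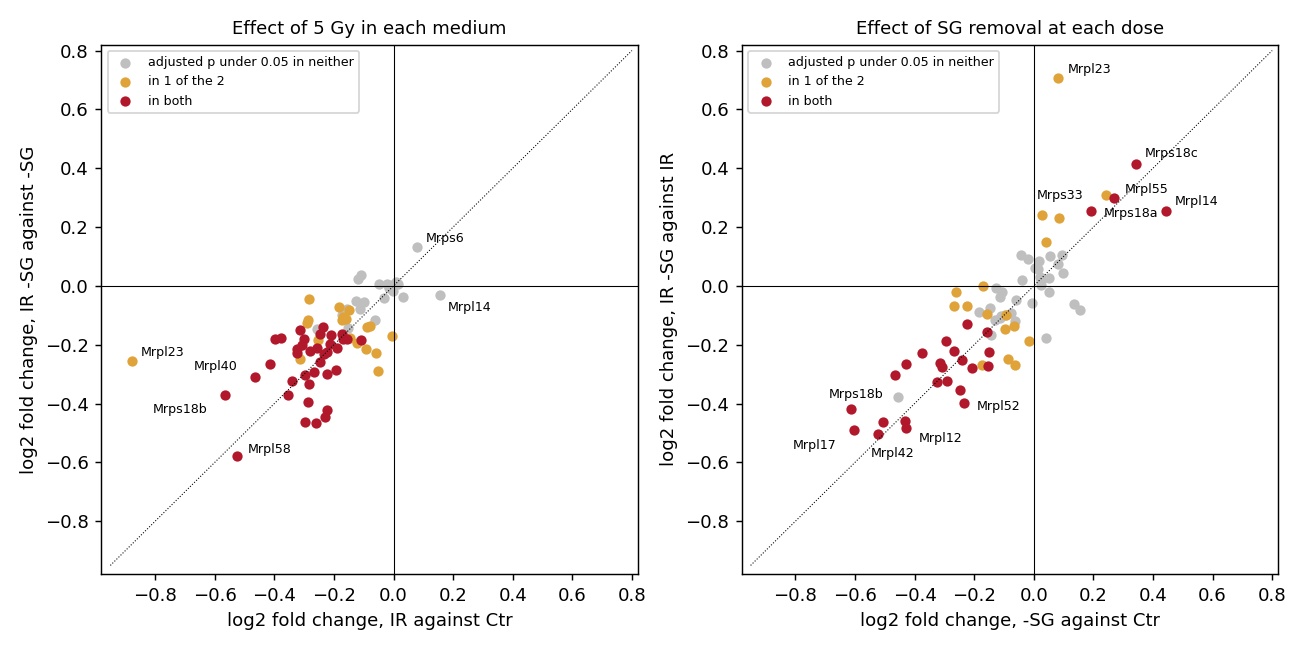
Log2 fold changes of the 77 tested Mrp genes for radiation in starved cells against radiation in complete medium (left) and for SG starvation in irradiated against non-irradiated cells (right), coloured by the adjusted p. The dotted line marks equal values, and in the left panel 67 of 77 genes lie below 0 on both axes while in the right panel Mrps18c, Mrpl55, Mrps18a and Mrpl14 lie above 0 on both.

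Mrpl1, Mrpl12, Mrpl13, Mrpl15, Mrpl16, Mrpl17, Mrpl20, Mrpl38, Mrpl42, Mrpl50, Mrpl52, Mrpl57, Mrps5, Mrps15, Mrps18b and Mrps28 were lower in -SG, IR and IR -SG against Ctr, in IR -SG against -SG and in IR -SG against IR, which makes 16 of 77. The number was 10 without Ctr replicate 2 or without IR replicate 1 and 13 without -SG replicate 6. In that last setting Mrpl17, Mrpl20, Mrps5 and Mrps15 dropped out and Mrps26 came in. It was 9 with equal library totals or upper-quartile scaling and 10 in fits of only the groups compared. These comparisons share libraries, so joint calls are not independent of each other. The matching share over all genes was not taken, so the count is not shown to be particular to the Mrp genes.

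The Mrps18 genes descend from the gene of 1 bacterial small-subunit protein and code for 3 proteins with different places in the mammalian particle: Mrps18b and Mrps18c in the small subunit and, despite its name, Mrps18a in the large one. Their mRNAs differed in the direction of their changes. Mrps18b (chr17:35910379-35916389, minus strand, GRCm38) had 636, 642 and 693 normalized counts in Ctr, 403, 431 and 453 in -SG, 438, 446 and 447 in IR and 349, 359.8 and 290.2 in IR -SG. The single treatments overlapped with each other, lay below Ctr and lay above IR -SG. The log2 fold change against Ctr was -0.61 ± 0.08 (SE, adjusted p = 2.98e-06) in -SG, -0.57 ± 0.08 (SE, adjusted p = 1.15e-05) in IR and -0.98 ± 0.08 (SE, adjusted p = 6.34e-09) in IR -SG, the last being the largest fall of any Mrp gene in that comparison. An antisense gene, Gm16279, shares 30.5% of its exon bases but had a mean of only 17.9 normalized counts.

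Mrps18c (chr5:100798627-100804471, plus strand), the closest counterpart of the bacterial protein, had 319, 333 and 350.1 normalized counts in Ctr, 429, 381 and 464 in -SG, 300.4, 286 and 302 in IR and 368, 391 and 427 in IR -SG. Both starved groups lay above both fed groups without overlap. Its log2 fold change was 0.34 ± 0.08 (SE, adjusted p = 0.00127) for starvation in non-irradiated and 0.41 ± 0.08 (SE, adjusted p = 0.000263) in irradiated cells, and 0.24 ± 0.08 (SE, adjusted p = 0.0109) in IR -SG against Ctr, where the call was lost without IR -SG replicate 6 and under quantile normalization. Mrps18a (chr17:46110986-46128910, plus strand) had 805, 861 and 864 normalized counts in Ctr, 977, 885 and 1035 in -SG, 734, 737 and 769 in IR and 883, 889 and 898 in IR -SG. It rose with starvation (0.19 ± 0.05, SE, adjusted p = 0.00648 without and 0.25 ± 0.05, SE, adjusted p = 0.000929 with radiation) and fell with radiation in complete medium (-0.17 ± 0.05, SE, adjusted p = 0.0135). The last call was lost without Ctr replicate 2 or Ctr replicate 3. The direction of each of these called changes was the same under all scalings.

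**Figure D4:**
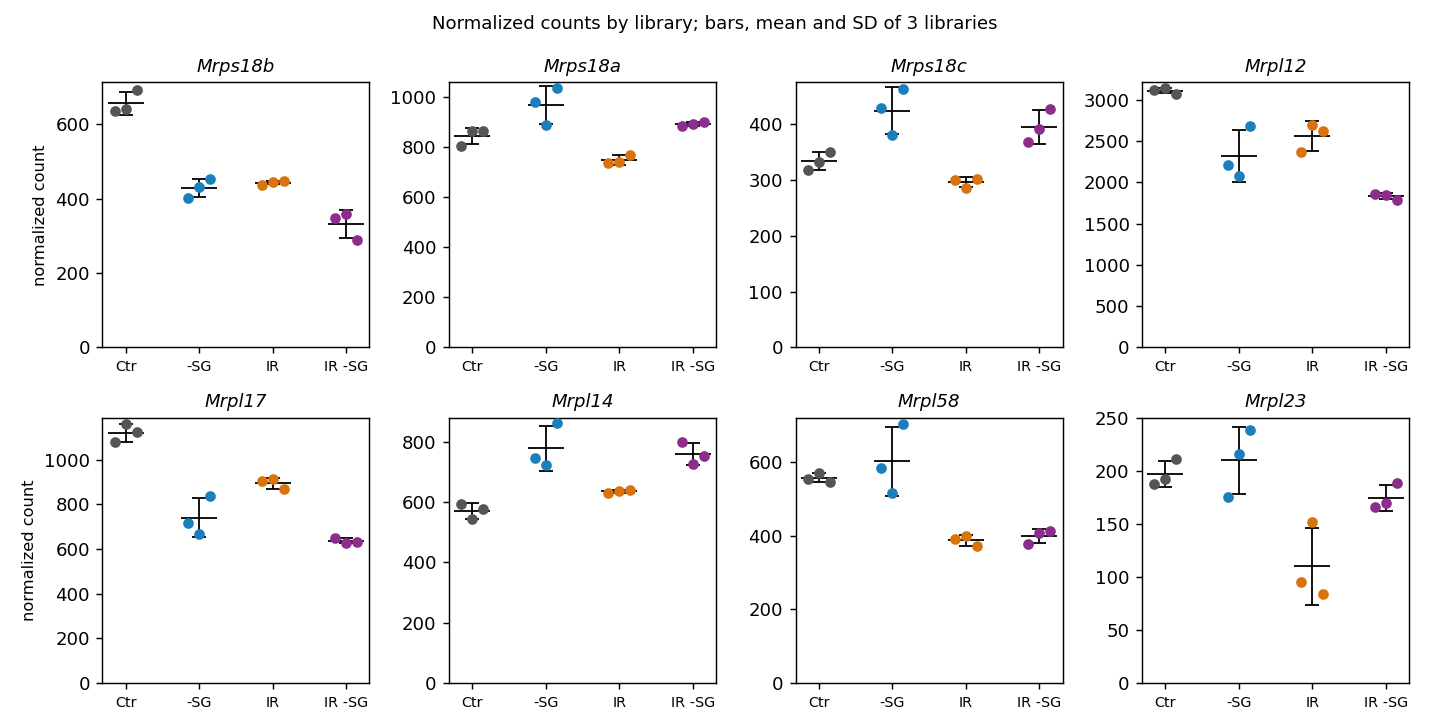
Normalized counts of 8 Mrp genes in each of the 12 libraries (points), with the mean and SD of the 3 libraries of each group (bars); each y axis starts at 0. Mrps18b is lowest in IR -SG, Mrps18a and Mrps18c are highest in -SG, and Mrpl58 is lower in both irradiated groups than in both others.

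Mrpl58 is a member of the release factor family that sits in the large subunit and frees peptides from stalled ribosomes. It had 555, 572 and 547 normalized counts in Ctr, 584, 517 and 704 in -SG, 391, 400.0 and 372 in IR and 378, 408 and 412 in IR -SG. All 6 irradiated libraries lay below all 6 others. Radiation gave a log2 change of -0.53 ± 0.08 (SE, adjusted p = 7.57e-05) in complete medium and -0.58 ± 0.08 (SE, adjusted p = 5.36e-05) in starved cells, and starvation gave 0.10 ± 0.08 (SE, adjusted p = 0.34) and 0.04 ± 0.08 (SE, adjusted p = 0.684) without and with radiation, neither of them called. The value of starvation without radiation rested on single -SG libraries: it was called without replicate 5 and was -0.02 without replicate 6.

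Mrpl23 had 188, 192 and 211 normalized counts in Ctr, 176, 217 and 238 in -SG, 95.6, 152 and 83.5 in IR and 166, 169 and 189 in IR -SG. The IR libraries were the lowest and the most scattered, with replicate 2 well above the other two. The log2 fold change was -0.88 ± 0.17 (SE, adjusted p = 0.000327) in IR against Ctr and -0.26 ± 0.17 (SE, adjusted p = 0.23) with radiation in starved cells, and the difference between these, 0.62 ± 0.23 (SE, adjusted p = 0.0992), was not called. Without IR replicate 2, without -SG replicate 6 (0.72 ± 0.22, adjusted p = 0.0232) or after the correction for GC content and length (0.62 ± 0.21, adjusted p = 0.0459) it was.

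Other Mrp genes known for a role of their own had few calls. Mrps12, of the decoding centre of the small subunit, had 359 ± 17.2 normalized counts in Ctr and 332 ± 23.1 in -SG, and 362 ± 45.6 in IR and 335 ± 13.7 in IR -SG, with log2 fold changes between -0.11 and 0.01 in the 5 comparisons and no call. Mrpl44, which carries a fold of the RNase III family, had 549 ± 21.9, 556 ± 28.9, 493 ± 5.27 and 505 ± 54.3 in the same order and no call. Mrps30, a large-subunit protein despite its name, was called only in IR -SG against Ctr (-0.16 ± 0.05, SE, adjusted p = 0.011), and that call was lost without IR -SG replicate 4, with equal library totals and after the correction for GC content and length. Mrps36 is now known as a component of the oxoglutarate dehydrogenase complex and not of the ribosome. It had a log2 change of -0.26 ± 0.11 (SE, adjusted p = 0.0639) in IR and of -0.17 ± 0.11 (SE, adjusted p = 0.199) in IR -SG. In the main test it was called in no comparison. Its IR value was called without IR replicate 3, and both values were called under quantile normalization.

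By the place of the proteins, 50 tested genes code for the large subunit, 26 for the small subunit and 1 (Mrps36) for neither. In IR 32 of the 50 large-subunit genes and 16 of the 26 small-subunit genes fell (medians -0.19 and -0.21), and in IR -SG 37 and 19 did (-0.28 and -0.35). In -SG 18 of 50 and 10 of 26 fell (medians -0.08 and -0.15), which is 36.0% and 38.5% against 28.6% of all genes. Of all genes 24.9% fell in IR and 32.5% in IR -SG. By origin, 27 of 46 genes with a bacterial counterpart and 21 of 30 mitochondria-specific genes fell in IR, and 32 of 46 and 24 of 30 fell in IR -SG. The 3 rises of IR -SG, where 37.2% of all genes rose, were all among those with a bacterial counterpart. No test of a difference between these classes was run, and they are given as counts.

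Levels were compared per kilobase of exon. In Ctr the tested Mrp genes ranged from 33.2 to 2031 normalized counts per kilobase, with a median of 334. The highest were Mrpl12 (2031), Mrpl28 (1375) and Mrpl18 (1077), all counterparts of bacterial large-subunit proteins, and the lowest were Mrpl48 (33.2), Mrpl23 (40.4) and Mrps10 (69.4), whose annotated exons are long. In IR -SG the level of Mrpl12 per kilobase was 1196 and that of Mrpl28 1198, so that the gap between the top 2 in Ctr was gone. Mrpl28 had a log2 change of -0.20 ± 0.05 (SE, adjusted p = 0.00305) in IR -SG and Mrpl18 one of -0.39 ± 0.06 (SE, adjusted p = 1.76e-05).

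Of the 78 genes 33 share exon bases with another annotated gene, and 9 share at least 20% with 1 such gene. The widest overlaps were those of Mrps25 with Nr2c2 (69.8%) and of Mrps34 with Mapk8ip3 (63.4%) on the opposite strand, and of Mrps34 with Nme3 (37.0%) on its own. Their values are uncertain where reads were not told apart. Mrps11 and Mrpl46 are neighbours on opposite strands that share 173 bases, and neither was called in any comparison with Ctr.

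Whether the radiation effect differed between media was tested by the interaction, the log2 effect of radiation without SG less that with SG. No Mrp gene was called in it in either direction by limma, edgeR or DESeq2, whereas 4.2% of all genes were higher and 7.17% lower. At an unadjusted p under 0.05, 7 Mrp genes were found by limma, 8 by edgeR and 3 by DESeq2. The median interaction was 0.02, against -0.01 over all genes. This depended on -SG replicate 6. Without that library 8 Mrp genes were called, all positive (Mrpl3, Mrpl17, Mrpl20, Mrpl23, Mrpl24, Mrps25, Mrps27 and Mrps35), which is 8 of 77 against 7.26% of all genes, and the median was 0.07. After the correction for GC content and length with all libraries 6 were called, again all positive (Mrpl20, Mrpl23, Mrpl24, Mrpl40, Mrpl41 and Mrps27), against 6.82% of all genes. For a gene lower after radiation, a positive value means a smaller fall in starved cells than in complete medium. Mrpl20, for example, had 1463, 1501 and 1425 normalized counts in Ctr, 1197, 1215 and 1123 in IR, 1068, 1029 and 1168 in -SG and 1029, 909 and 1007 in IR -SG, and its interaction was 0.16 ± 0.08 (SE, adjusted p = 0.207) with all libraries and 0.22 ± 0.07 (SE, adjusted p = 0.0332) without -SG replicate 6.

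**Figure D5:**
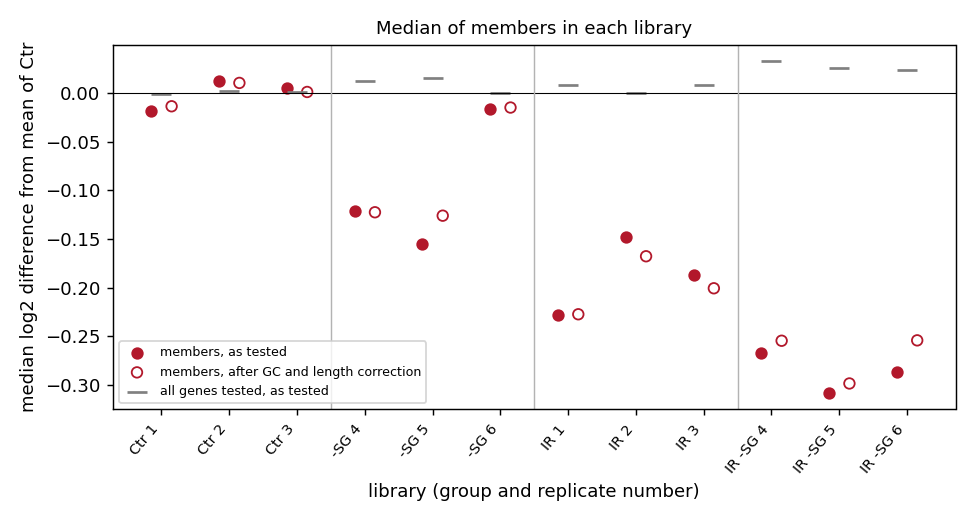
Median over the 77 tested Mrp genes of the log2 difference from the mean of Ctr in each library, as tested (filled circles) and after the correction for GC content and length (open circles), with the median of all genes tested (grey dashes). The -SG replicate 6 library lies at -0.02 while -SG replicates 4 and 5 lie at -0.12 and -0.16, and the IR -SG libraries are the lowest, at -0.27 to -0.31.

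The promoters of the Mrp genes, whatever their change, were searched for short motifs of factors known to act on nuclear genes of mitochondrial function. RefSeq promoter windows (GRCm38.p6; 250 bases before and 50 after the start site) were found for 69 of the 78 genes, in 75 windows. The NRF1 motif GCGCANGCG (nuclear respiratory factor 1, a regulator of mitochondrial genes) was in 16 of the 75 windows on either strand, 21.3% against 6.25% of all 32851 windows. The ETS motif CCGGAAGT (bound by GABP among others) was in 12 windows, 16% against 3.89%, and the YY1 motif AAGATGGC was in 12, 16% against 2.75%. The E-box CACGTG was in 7 windows, 9.33% against 7.15%, the CRE TGACGTCA in 2, 2.67% against 1.79%, and the amino acid response motif TGATGNAA in 0, against 3.97%. None of these motifs contains another, and 37 of the 69 genes held at least 1 of the first 3. Of the 16 tested genes with the NRF1 motif 8 fell in IR and 9 in IR -SG, and of the 52 without it 34 and 39 did, with medians of -0.14 and -0.29 in IR -SG. For the ETS motif 10 of 12 genes with it and 38 of 56 without it fell in IR -SG (medians -0.36 and -0.24). For the YY1 motif these were 8 of 12 and 40 of 56 (medians -0.21 and -0.29). A match of letters is a description and no evidence that a factor is bound.

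The windows of Mrpl17, Mrpl12 and Mrpl42, among the largest falls in IR -SG, and of Mrpl14, the largest rise, are shown to set the same motifs beside opposite changes; capitals mark the NRF1 motif in the first 3 sequences and the YY1 motif in the last, on either strand. They run 5′ to 3′ on the strand of the gene, from RefSeq on GRCm38.p6.
Mrpl17 (chr7:105811038-105811337, minus strand): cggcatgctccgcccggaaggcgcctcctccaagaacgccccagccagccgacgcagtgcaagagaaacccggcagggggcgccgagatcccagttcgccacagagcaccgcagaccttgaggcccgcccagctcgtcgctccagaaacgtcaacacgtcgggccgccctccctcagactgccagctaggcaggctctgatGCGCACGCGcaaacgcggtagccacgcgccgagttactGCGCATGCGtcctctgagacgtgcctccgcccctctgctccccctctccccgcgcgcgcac
Mrpl12 (chr11:120484387-120484686, plus strand): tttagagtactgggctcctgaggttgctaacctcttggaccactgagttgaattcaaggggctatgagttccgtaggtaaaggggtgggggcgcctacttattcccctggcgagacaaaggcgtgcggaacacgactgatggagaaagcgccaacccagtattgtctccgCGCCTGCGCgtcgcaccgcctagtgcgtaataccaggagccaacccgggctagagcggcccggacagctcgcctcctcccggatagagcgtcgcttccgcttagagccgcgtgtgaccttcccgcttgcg
Mrpl14 (chr17:45686099-45686398, plus strand): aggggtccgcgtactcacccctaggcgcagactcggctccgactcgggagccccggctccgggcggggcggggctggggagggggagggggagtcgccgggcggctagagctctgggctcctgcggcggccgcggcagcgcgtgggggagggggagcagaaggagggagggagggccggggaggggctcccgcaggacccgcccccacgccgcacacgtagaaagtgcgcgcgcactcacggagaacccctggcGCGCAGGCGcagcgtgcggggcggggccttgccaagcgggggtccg
Mrpl42 (chr10:95501900-95502199, minus strand): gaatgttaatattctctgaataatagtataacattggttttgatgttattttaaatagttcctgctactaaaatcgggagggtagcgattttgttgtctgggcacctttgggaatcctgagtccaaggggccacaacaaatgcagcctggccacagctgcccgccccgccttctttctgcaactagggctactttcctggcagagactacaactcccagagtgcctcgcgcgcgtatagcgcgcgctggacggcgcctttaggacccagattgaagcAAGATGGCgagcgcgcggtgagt
The motifs of Mrpl17 begin 49 and 11 bases before the start site and that of Mrpl12 begins 80 bases before it, whereas those of Mrpl14 and Mrpl42 lie just after it. The NRF1 letters thus stand in the windows of Mrpl17, called lower in all comparisons with all libraries, and of Mrpl14, which rose with starvation. Without -SG replicate 6, or in a fit of only the groups compared, the call of Mrpl17 in IR -SG against -SG was lost.

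The 5 genes of mitoribosomal proteins without an Mrp name were lower where they changed against Ctr. Chchd1 fell in IR (-0.35 ± 0.06, SE, adjusted p = 0.000208) and IR -SG (-0.34 ± 0.06, SE, adjusted p = 0.000157), as did Gadd45gip1 (-0.29 and -0.51). Ptcd3 fell in -SG (-0.20) and IR -SG (-0.27), and Dap3 (-0.11) and Aurkaip1 (-0.18) fell in IR. This makes 1 of 5 lower in -SG and 4 in IR, and 3 in IR -SG, with 0 higher in these 3 comparisons by limma. Of all genes 28.6%, 24.9% and 32.5% fell in the same order. The median of the 5 genes in -SG was -0.01, and 2 were lower in -SG without -SG replicate 6. Among the IR calls, that of Aurkaip1 was lost without Ctr replicate 3, that of Gadd45gip1 without Ctr replicate 1 or 3 or IR replicate 1 or 2, and that of Dap3 without any 1 of the Ctr or IR -SG libraries or IR replicate 1 or 2.

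The genes that build and serve the particle moved in both directions. Their counts are to be read against the shares over all genes, 28.6% lower and 30.0% higher in -SG, 24.9% and 28.9% in IR, and 32.5% and 37.2% in IR -SG. Of 27 tested genes for ribosome assembly and rRNA modification 10 fell and 4 rose in -SG, 12 fell and 1 rose in IR, and 16 fell and 5 rose in IR -SG (median -0.23). In -SG 12 fell and 5 rose without -SG replicate 6. The largest falls in IR -SG were in C1qbp (-0.80), a matrix protein needed for mitochondrial translation, Rcc1l (-0.72) and the GTPase Noa1 (-0.71), and the largest rises in Mpv17l2 (0.51), Mettl15 (0.49) and Mterf4 (0.40). C1qbp had 4209, 4333 and 4293 normalized counts in Ctr and 2445, 2457 and 2471 in IR -SG, with the single treatments between them (3045, 3024 and 3316 in -SG and 3156, 3351 and 3444 in IR). Of 19 translation factors and helpers 7 fell and 1 rose in -SG, 8 fell and 0 rose in IR, and 10 fell and 2 rose in IR -SG. In -SG 8 fell and 0 rose without -SG replicate 6. The largest falls there were in Mtres1 (-1.08), the elongation factor Tsfm (-0.69) and the elongation factor Tufm (-0.64), and the rises were in the initiation factor Mtif3 (0.30) and in Mtfmt (0.21), which formylates the initiator tRNA. The call of Mtfmt was lost without any 1 of the Ctr libraries, without IR -SG replicate 4 or 6, and by DESeq2, and that of Mettl15 without IR -SG replicate 5. Both were lost under quantile normalization. Tufm was lower in both starved groups than in both fed groups, with 1056, 1038 and 1122 normalized counts in Ctr and 922, 1022 and 1053 in IR, against 700.2, 618 and 763 in -SG and 677, 693 and 697 in IR -SG.

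The 9 genes for the copying and transcription of mitochondrial DNA showed 5 falls in -SG and 4 in IR, 7 in IR -SG, and 0 rises, where 28.6%, 24.9% and 32.5% of all genes fell. The falls in -SG were 6 without -SG replicate 6. The largest falls in IR -SG were in the helicase Twnk (-0.73), the nuclease Mgme1 (-0.63) and the polymerase subunit Polg2 (-0.49), and Twnk shares exon bases with Mrpl43. Of 10 listed regulators of nuclear genes for mitochondria the deposited table holds 9. Of these 7 fell in -SG and 5 in IR, and all 9 fell in IR -SG, against the same shares of all genes. Their median in IR -SG was -0.57. In -SG 7 fell without -SG replicate 6 too. Nrf1 had 1228, 1254 and 1241 normalized counts in Ctr, 899.9, 886 and 938 in -SG, 851, 879 and 891 in IR and 689, 617 and 665 in IR -SG. The single treatments overlapped and lay between Ctr and IR -SG, with log2 fold changes of -0.45 ± 0.05 (SE, adjusted p = 6.14e-07), -0.51 ± 0.05 (SE, adjusted p = 2.87e-07) and -0.92 ± 0.05 (SE, adjusted p = 6.01e-11). Pprc1, a coactivator, and Gabpb1, a subunit of GABP, had log2 fold changes of -0.66 and -0.62 in IR -SG.

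The mRNAs that the mitochondrial ribosome translates went the other way. Of the 13 mitochondrially encoded mRNAs 10 rose in each single treatment and 9 in IR -SG, and 0 fell (medians 0.60, 0.49 and 0.62), where 30.0%, 28.9% and 37.2% of all genes rose. Under quantile normalization 7 rose and 1 fell in IR, and 8 rose and 0 fell in IR -SG. After the correction for GC content and length 11 rose in each single treatment and 13 in IR -SG, with 0 falls. mt-Cytb, for a core subunit of complex III, had 12386, 11580.1 and 12607 normalized counts in Ctr, 19877, 23079 and 18040.3 in -SG, 17902, 15960.3 and 17370.3 in IR and 21173, 26242 and 26408 in IR -SG, with all treated libraries above all Ctr libraries. In IR -SG mt-Cytb had a log2 change of 1.01 ± 0.08 (SE, adjusted p = 1.84e-08), mt-Nd4 one of 0.95 and mt-Co1 one of 0.91. Without -SG replicate 6, 12 of 13 rose in -SG (median 0.72), 10 of 13 had a negative interaction against 0 with all libraries, and radiation in starved cells gave 3 rises and 4 falls against 4 and 0. The 2 mitochondrial rRNAs summed to 2021 to 2137 normalized counts in Ctr and 1424 to 2211 in -SG, and to 1759 to 2099 in IR and 1608 to 2136 in IR -SG. The libraries were depleted of rRNA, and these values are not levels in the cell.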

How the data were processed

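RNA-Seq was performed on 12 libraries of 4T1 cells (TruSeq stranded total RNA with rRNA depletion). Per the methods and the submitters' processing notes, reads were checked with FastQC and aligned to GRCm38 (TopHat and HISAT2 are both named), counted with featureCounts and normalized with DESeq2 in R 3.3.1; whether reads were counted by strand is not given in the sources used here. Deposited were normalized counts, that is, read counts that the authors divided by a size factor per library (a signal, not raw counts). With a tolerance of 0.001, 100% of values were whole multiples of the value of 1 read, so whole reads were recovered for the depth of the libraries and for the count tests. Such scaling sets levels relative to the other genes and gives no absolute amount of RNA.

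The main test was limma 3.58.1 (R 4.3.3, empirical Bayes with a mean trend) on log2(normalized count + 1), with 4 groups in one fit and 8 residual degrees of freedom, over 11663 protein-coding genes (GENCODE M21) that reached 10 normalized counts in 3 or more libraries. P-values were adjusted by Benjamini-Hochberg. The added 1 understates changes of low genes. On recovered reads, edgeR 4.0.16 (quasi-likelihood) called 28 Mrp genes lower in -SG and 51 in IR, and 57 in IR -SG, and DESeq2 1.42.0 called 28, 48 and 55. Alternatives were other filters and scalings, a fit of only the groups compared, each library left out, a replicate block, and a correction for GC content and exon length (splines with 5 degrees of freedom; 11661 genes had values). Together with the omission of -SG replicate 6, that correction was chosen after seeing the data. The limma test was tried on simulated reads with known changes, for the comparison of -SG with Ctr only.

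The Mrp genes and the other lists were chosen with earlier results of these data known. Genes were named by rule: the 5 largest rises and falls per comparison among called genes whose groups do not overlap, called interactions, 10 genes of known role or family (Mrpl12, Mrpl23, Mrpl44, Mrpl58, Mrps12, Mrps18a, Mrps18b, Mrps18c, Mrps30 and Mrps36), the 3 highest and lowest levels per kilobase, and up to 3 genes per list and direction. Mrpl20 and the other genes named for an interaction in 1 alternative were chosen after their values were seen.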

Additional observations from a re-analysis of the deposited data

Results flagged for a closer look

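Among the genes that accompany the mitochondrial ribosome, 3 had an effect of radiation that differed between media by limma's test of the interaction. They were 1 of 27 tested genes for assembly and rRNA modification, 1 of 19 translation factors and helpers and 1 of 9 regulators. The other tested lists of such genes, of 5, 9 and 13 genes, had 0. Of all genes 4.2% were higher and 7.17% lower in the interaction. Mtfmt had 249, 258 and 249 normalized counts in Ctr, 206, 224 and 238 in IR, 250.3, 262 and 223 in -SG and 326, 269 and 284 in IR -SG, so that the radiation effect was higher without SG by 0.4342 on the log2 scale (adjusted p = 0.0306). This call was lost without any 1 of the Ctr libraries, IR replicate 1 or 2 or IR -SG replicate 4, and with a replicate block. Tfb1m, an rRNA methyltransferase of the mitochondrial small subunit, had 140.4 ± 7.48, 149 ± 9.61, 163 ± 19.7 and 123 ± 3.26 normalized counts in the same order (mean ± SD, n = 3) and an interaction of -0.482 (adjusted p = 0.032). It was lost under quantile normalization, with a replicate block, by DESeq2, and without any 1 of the IR -SG libraries, Ctr replicate 1 or 3, -SG replicate 4 or IR replicate 1 or 3. Myc, a transcription factor that acts on many genes of growth, had 6155 ± 167, 6329 ± 218, 5177 ± 265 and 4016 ± 168 and an interaction of -0.4059 (adjusted p = 0.000415), called under every alternative run.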

How the results depend on the processing

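No called Mrp gene changed direction under any alternative run, and of 2424 values of single genes with a printed log2 change under alternatives 2335 kept their direction and stayed on the same side of the threshold, 65 lost a call and 20 gained one. The other 4 were uncalled values near 0 that turned: Mrps12 in IR -SG against -SG, which was -0.0192 under quantile normalization and -0.0354 to 0.0645 with a library left out, and Mrpl58 in -SG, which was -0.0215 to 0.201 with a library left out. The counts of Mrp genes that fell against Ctr stayed within 1.5 times the main count, and small counts of rises moved. The number that rose in -SG was 8 with equal library totals and 7 after the GC and length correction, also with -SG replicate 6 left out. In IR it was 1 in place of 0 (Mrpl14) with a minimum mean of 100, equal library totals, upper-quartile scaling or only the groups compared, and 1 (Mrps14) with the GC and length correction and -SG replicate 6 left out. In IR -SG it was 5 with equal library totals, upper-quartile scaling, only the groups compared or the GC and length correction, with or without -SG replicate 6, and 1 with quantile normalization; the median was -0.26 with equal library totals. In IR -SG against -SG 29 fell in a fit of only those groups, and the number that rose was 1 after the GC and length correction, with or without a replicate block, and 4 with -SG replicate 6 also left out, where the median was -0.105. In IR -SG against IR 14 rose in that last setting. The interaction gave 6 rises and a median of 0.07 after the correction, with or without a replicate block, and 10 and 0.0889 with -SG replicate 6 also left out. The cause was not tested.

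With each library left out in turn, the number that fell was 24 to 42 in -SG, 38 to 56 in IR, 49 to 58 in IR -SG, 31 to 44 in IR -SG against -SG, 24 to 33 in IR -SG against IR and 0 in the interaction. The number that rose was 3 to 6, 0 to 1, 1 to 5, 0 to 1, 7 to 10 and 0 to 8 in the same order. The medians were -0.14 to -0.07, -0.24 to -0.18, -0.31 to -0.28, -0.20 to -0.12, -0.12 to -0.07 and -0.0072 to 0.0688. The low ends for IR -SG rises and the high end for the interaction came without IR -SG replicate 6 and without -SG replicate 6.

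Replicate numbers are shared by Ctr and IR and by -SG and IR -SG, and deviations of same-numbered libraries correlated by -0.09 to 0.07. Correlations this small do not settle whether same-numbered libraries were paired. Each Ctr library correlated best with the IR library of its own number (0.03 to 0.07), which was not so for -SG and IR -SG. With a replicate block 48 Mrp genes fell in IR and 39 in IR -SG against -SG, with 0 rises, and the interaction had 0 calls. Depth limited few of the 77 genes, whose lowest group mean was 97.5 normalized counts.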
